A study of Mus musculus with 11 samples.

Results

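The genes of oxidative phosphorylation in both cell genomes were taken by name: the Nduf, Uqcr, Cox4 to Cox8, Atp5 and Sdh families and the mitochondrial mt-Nd, mt-Co, mt-Atp and mt-Cytb genes, without pseudogene (-ps) names and without Cox6a2. They number 110 of 55487 genes, 97 nuclear and 13 mitochondrial, and 8 of them (the Ndufaf genes) are assembly factors rather than subunits. By symbol, 56 belong to complex I, 4 to complex II, 9 to complex III, 21 to complex IV and 20 to complex V. Ndufa4 is counted with complex I by its name, although its protein is known as a complex IV subunit. Names do not exclude all pseudogenes: Cox6c2, Ndufb4c, Ndufa11b and Ndufs6b are annotated as processed pseudogenes and were kept, the first 2 of which passed the filter below. Of the 110, 103 passed the filter on low counts (90 nuclear and all 13 mitochondrial), among 14521 genes that did. Cox8b, Cox8c, Cox7b2 and a second record named Atp5o had 0 counts in all 11 libraries. Ndufa4l2, Ndufa11b and Ndufs6b reached at most 0.370, 0.109 and 0.0482 CPM (counts scaled to library size).

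Oxidative phosphorylation is carried by 5 protein complexes of the inner mitochondrial membrane, and makes most of the ATP of resting cells. Complexes I and II take electrons from NADH and succinate, complexes III and IV pass them on to oxygen, and complex V (ATP synthase) uses the resulting proton gradient to make ATP. Most subunits are nuclear genes, while the circular mitochondrial genome encodes the core of complexes I, III, IV and V, so assembly needs transcripts of both. Nuclear genes of the pathway are known targets of the transcription factors NRF1, GABP (an ETS factor) and YY1, and the mitochondrial genome is transcribed as long precursors that are cut into single messengers.

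RNA was sequenced from 11 AMLs (acute myeloid leukaemias) that arose in mice with Flt3-ITD, an activating duplication in a cytokine receptor gene, and NHD13, a NUP98-HOXD13 fusion transgene. Of these, 6 were Ifnar1 +/- and 5 were Ifnar1 -/-. Ifnar1 encodes a subunit of the type I interferon receptor, so the labelled comparison is AML with and without it. All 11 samples share Flt3-ITD and NHD13, and no sample without them was analysed here. Libraries are named by genotype and number. The labels do not say whether each one is a separate mouse, so p-values refer to the spread between samples, which may be technical. Ifnar1 itself had 39.2 to 84.4 CPM in the Ifnar1 +/- and 36.2 to 133 CPM in the Ifnar1 -/- AMLs. These counts cover the full gene and so cannot check a partial deletion; genotypes are used as labelled. Library totals were 25583642 to 38728143 estimated counts. Levels are given as CPM after TMM scaling, which corrects for differences in composition.

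The AMLs were not of 1 lineage. Ebf1, a B-lineage transcription factor gene, reached 744, 644 and 645 CPM in 3 Ifnar1 +/- AMLs (numbers 3, 4 and 5), and 655 and 529.7 CPM in 2 Ifnar1 -/- AMLs (numbers 3 and 5). The other 6 libraries had 0.0308 to 8.71 CPM. The members were compared across this split, at 250 CPM, which no label gives: the 5 libraries are called Ebf1-high and the other 6 Ebf1-low. Both genotypes occur in both classes, with 3 and 3 Ifnar1 +/- and 2 and 3 Ifnar1 -/- libraries. A pair of Ebf1-low libraries stood apart, namely Ifnar1 -/- library 2, with 68391 CPM in 10 eosinophil genes against at most 2020 CPM elsewhere, and Ifnar1 +/- library 6, with 11.8% of its counts in globin genes. Counts of called members and, between Ebf1 classes, the log2 ratios of summed levels are given with and without this pair. In bulk samples, fewer cells of a type and less RNA per cell cannot be told apart.

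The promoters of 3 called members are printed here as the stretch of RefSeq's promoter window that holds no annotated exon. They are from RefSeq's gene starts on GRCm38.p6. Ndufc1 (chr3:51408989-51409205, minus strand) and Ndufa9 (chr6:126849137-126849394, minus strand) had the smallest p among members higher in Ebf1-high libraries, and Ndufa6 (chr15:82354323-82354541, minus strand) was lower. Capitals mark an NRF1 site, GCATGCGC, in the Ndufa6 stretch. The wider windows of Ndufc1 and Ndufa9 each hold a YY1 site, which lies outside the stretches printed. Ndufa1, not printed, had a smaller p than Ndufa6 among lower members, and its window holds none of the sites searched for.

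Ndufc1: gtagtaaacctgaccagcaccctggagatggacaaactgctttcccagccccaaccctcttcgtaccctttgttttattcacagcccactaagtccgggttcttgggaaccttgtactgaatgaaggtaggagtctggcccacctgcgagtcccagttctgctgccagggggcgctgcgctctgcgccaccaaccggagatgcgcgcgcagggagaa

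Ndufa9: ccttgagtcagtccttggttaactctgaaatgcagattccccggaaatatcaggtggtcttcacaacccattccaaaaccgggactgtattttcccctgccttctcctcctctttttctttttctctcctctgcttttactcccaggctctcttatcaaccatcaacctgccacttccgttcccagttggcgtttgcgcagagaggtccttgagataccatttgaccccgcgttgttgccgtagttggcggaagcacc

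Ndufa6: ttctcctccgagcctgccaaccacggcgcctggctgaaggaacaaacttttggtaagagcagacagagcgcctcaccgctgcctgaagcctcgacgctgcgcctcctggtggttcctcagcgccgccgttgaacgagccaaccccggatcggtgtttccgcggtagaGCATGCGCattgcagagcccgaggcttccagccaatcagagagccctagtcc

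The search covered 3 motifs on both strands, in 250 bases before to 50 after each start: the NRF1 site GCATGCGC, an ETS site CCGGAAG and a YY1 site AAGATGG. The last 3 letters of the ETS site are the first 3 of the YY1 site, so 1 stretch can hold both. Of the 97 nuclear members, 76 were found in the promoter table. The NRF1 site lay in 12 of them (15.8%), the ETS site in 18 (23.7%) and the YY1 site in 12 (15.8%), and 35 (46.1%) held at least 1 of the 3. Over all 27025 promoters the shares were 3.05%, 9.93%, 7.28% and, for any of the 3, 18.6%. Over the 10150 promoters of genes that passed the filter they were 5.86%, 20.4%, 8.48% and 31.0%, so the difference from the members was smaller against genes expressed in these libraries. At least 1 motif lay in 7 of the 15 promoters of members that were higher in Ebf1-high libraries, in 1 of the 3 of those that were lower and in 27 of the 56 of members that were not called.

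The highest levels per length were those of mt-Co3, mt-Co2, mt-Co1, mt-Atp6 and mt-Cytb, while 6 of the 7 mt-Nd genes lay at 272 CPM per kb or below, among the nuclear members. The median member had 152 CPM per kb of transcript in nuclear complex I, 171 in complex II, 436 in complex III, 302 in complex IV and 377 in complex V. For the mitochondrial genes the medians were 258 for complex I, 2596 for complex IV and 1659 for complex V, and mt-Cytb, the only one of complex III, had 1382. The order among mitochondrial genes was led by mt-Co3 at 6440.3 CPM per kb, followed by mt-Co2 at 2596 and mt-Co1 at 2237, the 3 core subunits of cytochrome c oxidase. At the low end mt-Nd4l had 144 and mt-Nd6 145 CPM per kb. Values for mt-Nd4l and mt-Nd4, and for mt-Atp8 and mt-Atp6, are uncertain because each pair overlaps in the genome, and so are those of mt-Nd5 and mt-Nd6, which lie on opposite strands, since the strand setting of the counting is not given in the sources used here.

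**Figure D1:**
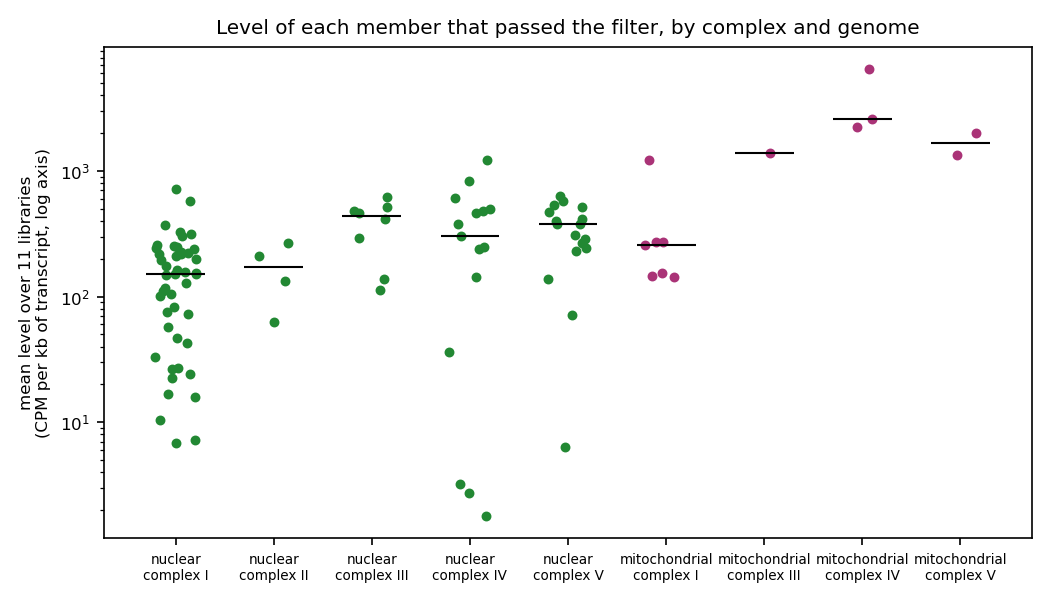
Mean level over 11 libraries, in CPM per kb of transcript on a log axis, of the 103 members that passed the filter, 1 point each, with the median of each group as a line. The mitochondrial complex IV genes lie highest, at 2237 to 6440.3 CPM per kb, and the lowest points of nuclear complex IV are Cox7a1, Cox4i2 and Cox6c2, at 3.24, 2.71 and 1.79.

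Among nuclear members, Cox4i1, the main isoform of complex IV subunit 4, had the highest level per length at 1222 CPM per kb, and in plain CPM Atp5b, the catalytic beta subunit of ATP synthase, was highest with a mean of 1208. Within complex I, mean levels ran from 345 CPM for Ndufb8 to 7.39 CPM for the assembly factor gene Ndufaf6. Within complex II they ran from 386 CPM for Sdha, the flavoprotein, to 125 CPM for the membrane anchor gene Sdhc. Complex III ran from 762 CPM for the core subunit gene Uqcrc1 to 157 CPM for Uqcrb. Complex IV ended with the processed pseudogene Cox6c2 at 0.414 CPM and complex V with Atp5s at 9.70 CPM. Tissue isoforms were at a small share of their partners: Cox4i2 had 0.0155% to 0.765% of the Cox4i1 level and Cox7a1 0.164% to 1.40% of that of Cox7a2. The genes Atp5g1, Atp5g2 and Atp5g3, which encode the same ring subunit of ATP synthase, made up 27.0% to 36.3%, 15.3% to 28.9% and 39.6% to 50.6% of their sum.

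Most members varied about 2-fold between libraries. The highest library had a median of 1.98 times the lowest over the 90 nuclear members, from 1.34 times for Ndufa7 to 48.5 times for Cox6b2. Over the 13 mitochondrial members the median was 2.16 times, from 1.72 for mt-Co3 to 2.77 for mt-Co1.

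Nuclear members summed, in the order of the library numbers, to 17785, 16460.2, 18273, 21174, 20129 and 21206 CPM for Ifnar1 +/- and 15853, 20119, 21942, 14749 and 19677 CPM for Ifnar1 -/-. Mitochondrial members summed to 16828, 14462, 18114, 16168, 14576 and 15754 CPM for Ifnar1 +/- and 14643, 21941, 16826, 12367 and 12969 CPM for Ifnar1 -/-. Ifnar1 -/- library 2 was thus highest for the mitochondrial sum, and Ifnar1 -/- library 4 lowest for both sums. As a share of all counts, without the TMM factor, the mitochondrial members of Ifnar1 -/- library 2 took 1.50%, within the 1.31% to 1.96% of the 11 libraries. The mitochondrial sum was 94.6%, 87.9%, 99.1%, 76.4%, 72.4% and 74.3% of the nuclear sum for Ifnar1 +/- and 92.4%, 109%, 76.7%, 83.9% and 65.9% for Ifnar1 -/-. The sums and the ratio overlapped between genotypes and between Ebf1 classes. The nuclear sum overlapped between Ebf1 classes only through the pair of libraries that stood apart: the other 4 Ebf1-low libraries had 14749 to 17785 CPM, below the 18273 to 21942 CPM of the 5 Ebf1-high ones.

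**Figure D2:**
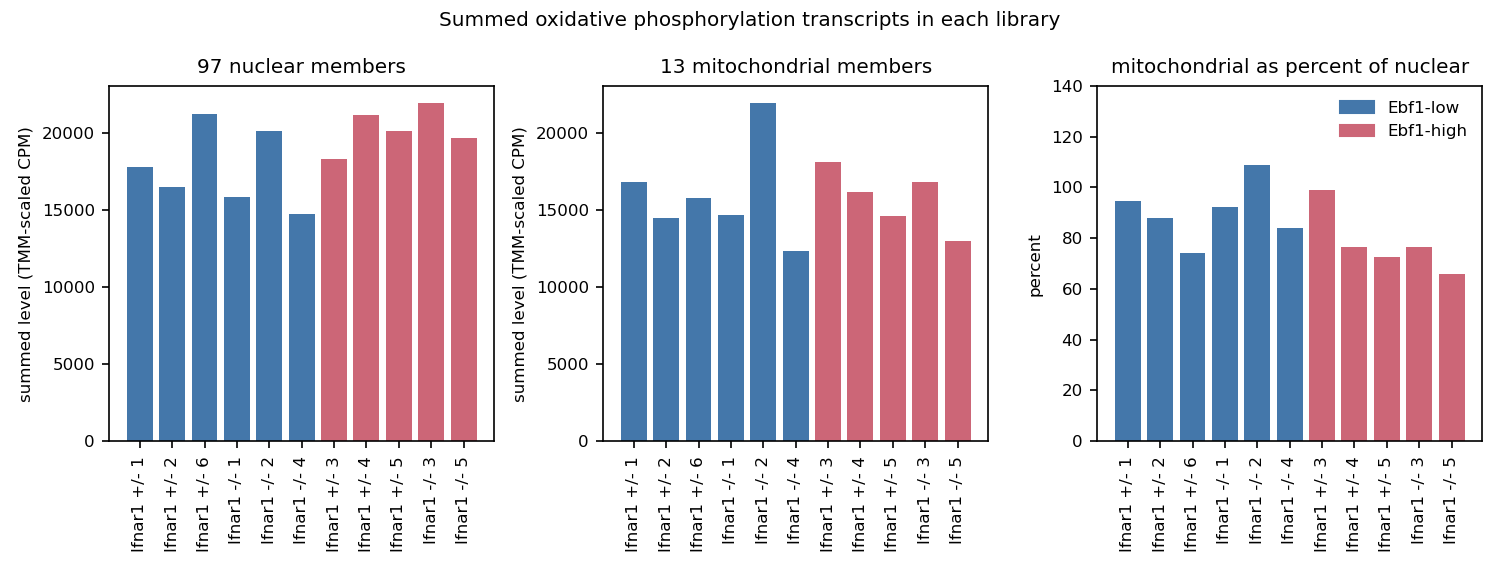
Summed level in TMM-scaled CPM of the nuclear and of the mitochondrial members, and the mitochondrial sum as a percent of the nuclear sum, 1 bar per library, with Ebf1-low libraries at left. The ratio lies between 65.9% (Ifnar1 -/- library 5) and 109% (Ifnar1 -/- library 2), and the classes overlap in all 3 panels, in the nuclear one only through Ifnar1 +/- library 6 and Ifnar1 -/- library 2.

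No member was called between the labelled Ifnar1 genotypes. By genotype, 0 of the 103 members passed edgeR's quasi-likelihood test at an adjusted p under 0.05, against 0.0% of all 14521 genes. DESeq2 called 0 members and 3 other genes. At an unadjusted p under 0.05 there were 0 members, against 1.99% of all genes (289). In DESeq2 there were 1 member (mt-Nd1) and 454 of 14521 genes, and with limma voom 7 of 103 members and 1241 of 14521 genes. Without the pair, edgeR gave 3 of 103 members (mt-Nd6, mt-Nd2 and mt-Nd4, all negative) and 193 of 14742 genes. After adjustment 0 were left without the pair, and 0 with limma voom. No member had groups that did not overlap, against 0.124% of all genes. The log2 fold change (Ifnar1 -/- against Ifnar1 +/-) had a median of -0.08 over the members and -0.01 over all genes, and it was negative for 71 members. Mean nuclear sums were 19171 ± 1957 and 18468 ± 3038 CPM (SD, n = 6 Ifnar1 +/- and 5 Ifnar1 -/-), and mean mitochondrial sums 15984 ± 1388 and 15749 ± 3869 CPM. The mitochondrial sum was 84.1% ± 11.3 and 85.6% ± 16.3 of the nuclear sum, so all 3 differed by less than the SD within a genotype. These means include the pair, and Ifnar1 -/- library 2 had the highest mitochondrial sum and ratio. By the library values printed above, the mean ratio without the pair was lower in Ifnar1 -/- than in Ifnar1 +/-, the reverse order.

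The smallest unadjusted p between genotypes among members belonged to mt-Nd1, a core subunit of complex I encoded in the mitochondrial genome. It had 1286, 1010.3, 1468, 1507, 1331 and 1221 CPM in the Ifnar1 +/- and 976, 1017, 1294, 721 and 1039 CPM in the Ifnar1 -/- libraries. The groups overlapped, with a log2 fold change of -0.37 (SE 0.18) that did not pass. All 7 mt-Nd genes had a negative log2 fold change, from -0.39 for mt-Nd2 to -0.12 for mt-Nd5, while the 3 mt-Co genes lay between -0.02 and 0.11. These 7 genes were read in the same libraries and, apart from mt-Nd6, come from the same strand, so their signs are not independent, and none passed. In nuclear complex I, the assembly factor gene Ndufaf4 was at -0.67 (SE 0.33) and the subunit genes Ndufv3 and Ndufa6 at 0.34 (SE 0.29) and 0.32 (SE 0.30). The isoform gene Cox4i2 was at -1.16 (SE 0.69), at levels of 0.206 to 5.47 CPM. The ring subunit gene Atp5g1 was at -0.23 (SE 0.19). The value of Ndufv3 rests on Ifnar1 -/- library 2, with 270.2 CPM against 85.8 to 146 CPM elsewhere, and was -0.027 without it.

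Between Ebf1 classes, genes of complexes I and V and mt-Cytb were among those that differed. In Ebf1-high libraries 17 of the 103 members were higher and 3 lower at an adjusted p under 0.05, in a fit that also holds genotype. These are 16.5% and 2.91% of the members. Of all 14521 genes, 14.6% were higher, 15.7% lower and 30.3% either. The share of members called higher was therefore near the background and the share called lower under it. Groups of libraries did not overlap for 10 higher and 2 lower members (9.71% and 1.94%), against 12.1% and 9.0% of all genes. The median log2 fold change was 0.20 over the members and -0.05 over all genes. Without the pair of libraries that stood apart, 32 members (31.1%) were higher and 3 lower, against 19.9% and 21.2% of all genes, and these 35 include all 20 above. In all 20 the mean moved the same way within both genotypes. The 20 were picked by a fit over these same libraries, which favours such members, so this is no separate support.

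The calls fell mostly in complexes I and V, which also hold most of the members. In nuclear complex I 11 of 46 members were higher and 2 lower, and in nuclear complex V 5 of 17 were higher and none lower. The shares higher were 23.9% and 29.4%, against 14.6% of all genes. Those called in either direction were 28.3% and 29.4%, against 30.3% of all genes. None of the 4 members of complex II and none of the 8 nuclear members of complex III was called, and in nuclear complex IV 1 of 15 was lower. Of the 13 mitochondrial members 1 was higher. Median log2 fold changes were 0.18, 0.03, 0.12, 0.07 and 0.29 for nuclear complexes I to V. Differences between complexes were not tested. Without the pair, Cox7a2, Cox6a1, Cox6b1 and Cox7a1 of complex IV and Uqcrq of complex III passed as well, so these complexes are not set apart by the calls.

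**Figure D3:**
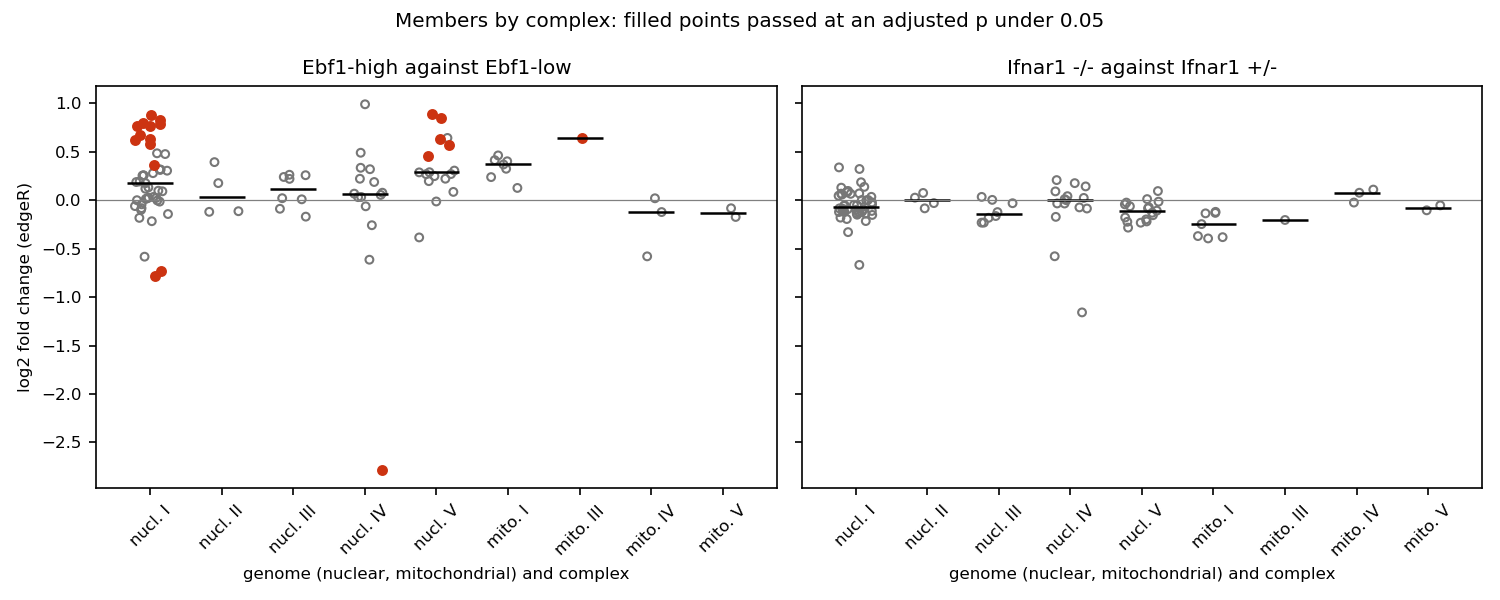
Log2 fold change of each of the 103 members by genome and complex, for Ebf1-high against Ebf1-low libraries (left) and Ifnar1 -/- against Ifnar1 +/- (right), with medians as lines and filled points for an adjusted p under 0.05. The left panel has 20 filled points, 13 of them among the 46 of nuclear complex I, and the right panel none.

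Ndufc1, an accessory subunit gene of complex I on chromosome 3 (51404677 to 51408988, minus strand, GRCm38), had the smallest p. It had 94.7, 112, 115, 97.6 and 104 CPM in the Ebf1-high libraries and 66.1, 63.1, 74.9, 59.6, 38.5 and 48.9 CPM in the Ebf1-low ones. All 5 high libraries lay above all 6 others, at 1.77-fold the level (log2 0.83, SE 0.15, edgeR adjusted p = 0.00342). Ndufa9, which encodes an accessory subunit at the junction of the membrane and matrix arms, had 225, 282, 292, 285 and 251 CPM against 126, 157, 193, 167, 144 and 137 CPM. Its groups did not overlap either, with a log2 fold change of 0.79 (SE 0.15, edgeR adjusted p = 0.00365). Ndufab1, the mitochondrial acyl carrier protein gene, was at 134 ± 24.3 CPM (SD, n = 5) against 79.0 ± 6.90 CPM (SD, n = 6), a log2 fold change of 0.76. A pseudogene-named copy of it, Ndufab1-ps, held 85.31 to 381.62 counts, so reads could be split between them.

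Other complex I subunit genes that rose were Ndufs5 (0.88, SE 0.20), Ndufb2 (0.80, SE 0.23), Ndufs8 (0.63, SE 0.17), Ndufa12 (0.58, SE 0.18) and Ndufb5 (0.37, SE 0.12), as log2 fold changes. Ndufs8 encodes an iron-sulphur subunit of the electron path, and its libraries overlapped at 230.3 to 412 against 169.9 to 252 CPM. Assembly factor genes were also among them: Ndufaf8 at 42.5 ± 3.38 against 27.5 ± 2.14 CPM (SD, n = 5 and 6; log2 0.63, SE 0.13), Ndufaf6 at 0.76 (SE 0.24) and Ndufaf2 at 0.67 (SE 0.23). Ndufaf8 had no overlap between classes, at 38.2 to 47.5 against 25.1 to 31.3 CPM. The other 5 assembly factors of the set did not pass. Some of these calls were fragile: of 24 alternative runs, Ndufaf2 did not pass in 16 and Ndufb5 in 14. Ndufa12 and Ndufaf6 did not pass in 9 each, Ndufb2 in 5 and Ndufs8 in 2, while Ndufs5 and Ndufaf8 failed in 1 each.

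Against this direction, 2 complex I genes were lower in Ebf1-high libraries. Ndufa1, an accessory subunit gene on the X chromosome, had 70.8, 96.0, 90.9, 90.5 and 105 CPM against 184, 135, 149, 127, 208 and 135 CPM, with no overlap (log2 -0.78, SE 0.17, edgeR adjusted p = 0.00857). Ndufa6, whose promoter is printed above, had 195, 201, 174, 229 and 199 CPM against 362, 246, 303, 253, 557 and 305 CPM. All Ebf1-high libraries lay below all others (log2 -0.73, SE 0.21, edgeR adjusted p = 0.0262), and the value was -0.56 without the pair, which holds the highest of them. The call of Ndufa6 was lost in 7 of 24 alternative runs, and that of Ndufa1 in 1. Within a library, the Ndufc1 level was 98.9% to 134% of that of Ndufa1 in the Ebf1-high and 18.5% to 50.2% in the Ebf1-low AMLs. This ratio of a pair of genes of 1 complex does not depend on the scaling, and it was chosen after its values were seen.

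Complex V had 5 members higher and none lower. Atp5b had 1570.0, 1403, 1541, 1446 and 1533 CPM in the Ebf1-high and 995, 1053, 1324, 792, 861 and 772 CPM in the Ebf1-low libraries. The groups did not overlap, and Ifnar1 +/- library 6 was the highest of the low class (log2 0.63, SE 0.13, edgeR adjusted p = 0.00723). Atp5k and Atp5j2, small membrane subunit genes, were at 0.89 (SE 0.21) and 0.84 (SE 0.20), Atp5o, a peripheral stalk gene, at 0.57 (SE 0.14) and Atp5g2 at 0.46 (SE 0.13). Atp5g1 and Atp5g3, the other genes for the ring subunit, were at 0.09 (SE 0.18) and 0.20 (SE 0.20) and did not pass, and the difference between the 3 was not tested. Atp5a1, the alpha subunit gene, had 1333 ± 198 against 1098 ± 207 CPM (SD, n = 5 and 6; log2 0.27, SE 0.16) and did not pass.

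Cox6b2 was the member with the widest range and the only one of complex IV that was called. It encodes an isoform of subunit 6b that is known from testis. It had 1.40, 6.83, 1.13, 1.04 and 7.73 CPM in the Ebf1-high and 19.1, 31.7, 50.3, 37.1, 3.76 and 12.0 CPM in the Ebf1-low libraries. Only Ifnar1 -/- library 2, at 3.76 CPM, overlapped with the high class. Its difference was -2.78 on the log2 scale (SE 0.82, edgeR adjusted p = 0.0281). Its level was 0.367% to 3.29% of that of the common isoform gene Cox6b1 in the high class and 1.12% to 19.8% in the low class, and Cox6b1 itself was at 246 ± 22.9 against 237 ± 71.4 CPM (SD, n = 5 and 6).

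**Figure D4:**
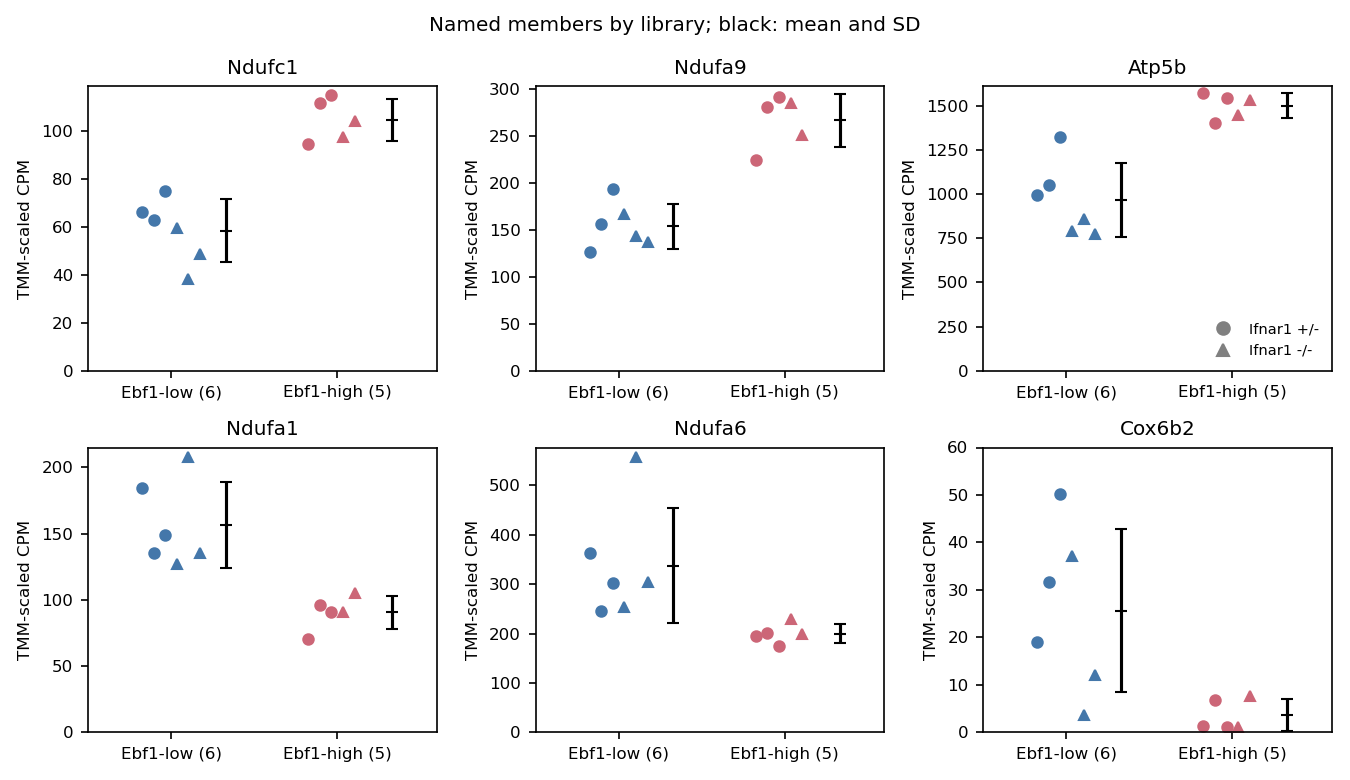
Level in TMM-scaled CPM of 6 members in each library, by Ebf1 class, with circles for Ifnar1 +/-, triangles for Ifnar1 -/- and the mean and SD in black. Ndufc1, Ndufa9 and Atp5b are higher and Ndufa1 and Ndufa6 lower in the 5 Ebf1-high libraries with no overlap, and Cox6b2 overlaps through 1 library at 3.76 CPM.

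Complexes II and III gave no nuclear call. Sdhb, the iron-sulphur subunit gene of succinate dehydrogenase, was at 350 ± 58.0 against 266 ± 34.4 CPM (SD, n = 5 and 6; log2 0.39, SE 0.15, edgeR adjusted p = 0.0751). Sdha, Sdhc and Sdhd were at 0.18, -0.12 and -0.11. The nuclear members of complex III ranged from -0.17 for Uqcrh to 0.26 for Uqcr11.

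Log2 fold changes of the mitochondrial genes between Ebf1 classes ran in both directions, and differences between these genes were not tested. The messenger of cytochrome b, mt-Cytb (mitochondrial genome, 14145 to 15288, plus strand), had 2065, 2130.5, 2032, 2080.1 and 1585 CPM in the Ebf1-high and 1384, 1540.2, 942, 1244, 1347 and 1048 CPM in the Ebf1-low libraries. The groups did not overlap (log2 0.65, SE 0.15, edgeR adjusted p = 0.0110). The messenger of cytochrome c oxidase subunit 1, mt-Co1 (5328 to 6872, plus strand), had 3494, 2722, 2260.5, 2796 and 2320.0 CPM against 4235, 3204, 4101, 3595, 6256 and 3038 CPM. Its groups overlapped and it did not pass (log2 -0.58, SE 0.21, edgeR adjusted p = 0.0634), though it did in 5 of 24 alternatives. The 7 mt-Nd genes lay between 0.13 for mt-Nd4 and 0.46 for mt-Nd4l, and none passed. That of mt-Nd4 was -0.017 without Ifnar1 +/- library 6. The values of mt-Nd1, mt-Nd2, mt-Nd3, mt-Nd5 and mt-Nd6 were 0.33, 0.37, 0.41, 0.40 and 0.24. Close to 0 were mt-Co3 (0.02) and mt-Co2 (-0.12), and so were mt-Atp6 (-0.08) and mt-Atp8 (-0.17).

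The ratio of mt-Cytb to mt-Co1, which needs no scaling between libraries, was 0.591, 0.783, 0.899, 0.744 and 0.683 in the Ebf1-high and 0.327, 0.481, 0.230, 0.346, 0.215 and 0.345 in the Ebf1-low AMLs. It was chosen after the values were seen and is given without a test. The classes did not overlap in it, also within each genotype. Of the mitochondrial total, mt-Co1 took 15.5% to 19.3% in the high class and 22.2% to 28.5% in the low class, and mt-Cytb 11.4% to 13.9% and 5.98% to 10.7%. The share of mt-Co3 overlapped between these classes, at 30.6% to 33.8% and 29.0% to 33.3%, but not between the labelled genotypes, at 29.0% to 31.8% in Ifnar1 +/- and 32.3% to 33.8% in Ifnar1 -/- AML. This was the only one of the sums, shares and ratios computed that separated the genotypes, it was picked after its values were seen, and it has no test. The 2 mitochondrial ribosomal RNA genes, from the same precursors, were at -0.13 (mt-Rnr1, SE 0.25) and 0.07 (mt-Rnr2, SE 0.24).

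**Figure D5:**
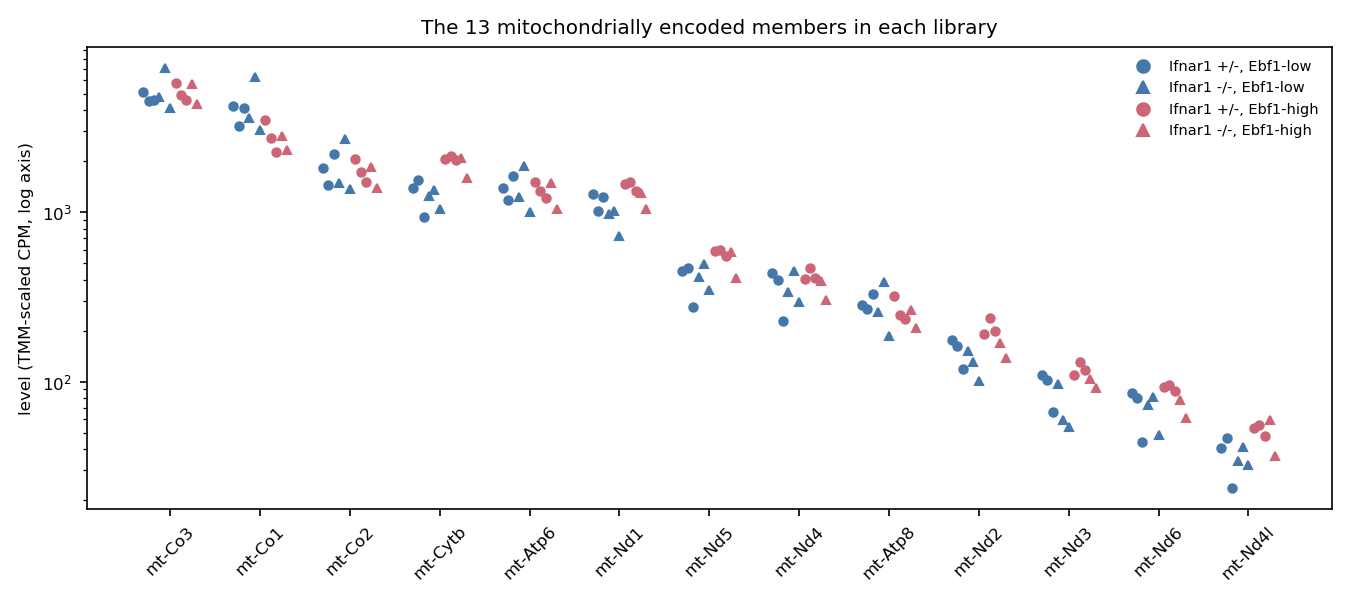
Level in TMM-scaled CPM, on a log axis, of the 13 mitochondrial genes in each library, with Ebf1-low libraries in blue and Ebf1-high in red. The red points of mt-Cytb (1585 to 2130.5) lie above its blue points (942 to 1540.2), while those of mt-Co1 lie mostly below.

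As sums, the nuclear members had 20239 ± 1411 CPM (SD, n = 5) in the Ebf1-high and 17695 ± 2522 CPM (SD, n = 6) in the Ebf1-low class, and the mitochondrial members 15731 ± 2002 and 15999 ± 3269 CPM. The mitochondrial sum was 78.1% ± 12.5 of the nuclear sum in the high class and 90.3% ± 11.6 in the low class, a difference about as large as the SD. As shares of all counts, which leave out the TMM factors, the nuclear members took 1.98% to 2.30% in the high and 1.37% to 1.89% in the low class, without overlap, so the separation of the nuclear sum depends on the scaling and on the pair that stood apart. Without the pair, the log2 ratio between classes on the TMM scale was 0.32 for the nuclear sum, against 0.19 with it, and 0.11 for the mitochondrial sum, against -0.02. As shares of all counts over all 11 libraries, the mitochondrial members took 1.69% ± 0.201 in the high and 1.48% ± 0.121 in the low class and overlapped. Complex V had the clearest nuclear sum, with 6884 ± 401 against 5446 ± 812 CPM, and still overlapped through Ifnar1 +/- library 6.

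Genes that serve the same complexes were counted in the same fit. The counts below stand against the 14.6% of all genes that were higher and the 15.7% that were lower, and against the median of -0.05. Of 38 tested assembly factors with other names, 4 were higher and 1 lower in Ebf1-high AMLs, both shares under those of all genes, with a median log2 fold change of 0.24. Sdhaf2, which helps to attach the flavin of complex II, was at 0.80 (SE 0.16) and Ecsit, a complex I factor, at 1.01 (SE 0.21), while Coa5, a complex IV factor, was at -0.59 (SE 0.16). Of 16 electron carrier genes, 5 were higher and 2 lower. The coenzyme Q genes Coq7 (2.11, SE 0.31) and Coq6 (1.11, SE 0.17) were higher, and so was Cyc1, a complex III subunit gene that the name families leave out (0.71, SE 0.16). Gpd2, the glycerol phosphate dehydrogenase that feeds electrons to the chain, was lower (-1.11, SE 0.19). Cycs, the gene of cytochrome c, was at 0.19 (SE 0.20) and did not pass.

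Of 28 genes for mitochondrial transcription, RNA stability and DNA maintenance, 9 were higher and 0 lower (median 0.51), where 14.6% and 15.7% of all genes were. Tfam, which packages and helps to transcribe mitochondrial DNA, was at 65.7 ± 5.22 against 35.1 ± 9.01 CPM (SD, n = 5 and 6; log2 0.90, SE 0.19, edgeR adjusted p = 0.0061). Mterf4, Slirp and Supv3l1 followed at 0.67, 0.64 and 0.59. Of 11 regulators of the nuclear members, Nrf1 (0.68, SE 0.16), Myc (1.07, SE 0.35) and Gabpb1 (0.54, SE 0.18) were higher and Tfe3 (-0.87, SE 0.24) lower. Gabpa and Yy1 were at 0.15 (SE 0.23) and 0.09 (SE 0.18) and did not pass.

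In the tricarboxylic acid cycle, 4 of 17 genes were higher (Idh3b, Fh1, Idh2 and Idh3g, at 0.59, 0.83, 1.08 and 0.42) and 0 lower, with a median of 0.22. In glycolysis, 1 of 19 was higher and 8 lower, with a median of -1.21. Of all genes, 14.6% were higher and 15.7% lower. The lactate exporter gene Slc16a3 was at -4.08 (SE 0.72), the hexokinase gene Hk1 at -1.86 (SE 0.35) and the aldolase gene Aldoa at -1.81 (SE 0.34), while the transporter gene Slc16a1 was higher (2.52, SE 0.41). None of these lists had a gene that passed between genotypes.

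Some other transcript groups moved with the same split, and others did not. As background, 14.6% of all genes were higher and 15.7% lower. Early B-lineage genes, Ebf1 included, had 13 of 14 tested members higher, with sums of 6205 to 9457 CPM in the Ebf1-high and 19.5 to 215 CPM in the Ebf1-low class. Ebf1 defined the classes, so its own call and its part of these sums were fixed in advance. Cell cycle genes had 15 of 16 higher (median 1.84), with sums of 3991 to 4825 against 708 to 2240.4 CPM, and MYC target and ribosome biogenesis genes 5 of 16. Erythroid genes had 4 of 13 lower, with sums of 1210 to 3986 against 3731 to 140495 CPM, and megakaryocyte genes 3 of 8. Stem and progenitor genes had 2 of 10 lower, monocyte genes 3 of 10 lower and 1 higher, eosinophil genes 1 of 10 lower, neutrophil genes 0 of 11, and T and NK cell genes 2 of 5 higher and 1 lower. The part of lineage, of proliferation and of other cells in the members' differences was not tested.

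No member was called for a genotype difference that changed between the Ebf1 classes. With few libraries in each combination of genotype and class, such a difference could be missed. In the fit with an interaction, 0 of the 103 members and 0.0% of all genes passed edgeR's test, and DESeq2 called 0 members and 12 other genes. At an unadjusted p under 0.05 there was 1 member against 2.86% of all genes (415). That member was Ndufa10, an accessory complex I subunit gene, with a difference in log2 fold change of 0.64 (SE 0.28), and it did not pass.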

How the data were processed

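Bulk RNA-seq of 11 AMLs was used, made with Qiagen and Clontech kits per the labels' protocols. The authors deposited estimated counts per gene that were not scaled between samples. Tools named in the submitters' processing notes are bcl2fastq and DRAGEN. Genome build, annotation and strand setting were not given in the sources used here. Of 55774 rows, 287 identical copies of 168 repeated identifiers were dropped, which left 55487 genes. Symbols matched 55141 identifiers. Values were not whole for 31.8% to 36.4% of the members in a library; genes with near-identical copies are uncertain because estimated counts can divide shared reads.

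The estimated counts were rounded, and edgeR 4.0.16 (R 4.3.3) was run on all genes: filterByExpr by genotype, TMM factors, glmQLFit with robust=TRUE and a two-sided quasi-likelihood F-test. P-values were adjusted by Benjamini-Hochberg over 14521 genes, with a threshold of 0.05. The fits were genotype alone, genotype with Ebf1 class, and their interaction. SE is the absolute log2 fold change over the square root of F. Lengths are the median over coding transcripts in GENCODE release M21 (GRCm38); this measure replaced the union of exons after its values were seen. Alternatives used DESeq2 1.42.0, limma 3.58.1, other scalings, filters and thresholds, and left out libraries. The procedure was checked on simulated data.

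The members, lists, tests and the Ebf1 split at 250 CPM were chosen with earlier results of these data known, so the split's p-values describe an association within these libraries. Named genes are all mitochondrial members, the called members of a comparison (at most 15 higher and 15 lower) or, with none, the 6 of each sign with the smallest p, the extremes per complex, and up to 4 per other list. The comparison of promoters with expressed genes, the promoters printed, the ratios between genes, the list genes beyond 4, the background without both libraries that stood apart, and Ndufb5, Ndufaf2, Sdhb, Sdhd, Atp5a1, Cox6b1 and the other members named outside this rule were chosen after the values were seen.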

Additional observations from a re-analysis of the deposited data

Results flagged for a closer look

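Of 108 combinations of a value and a genotype that were looked at (summed levels, ratios and named members), 6 had a library far from the others of its genotype by Dixon's criterion. Chance gives about 1 in 20 for values picked without regard to the data. The nuclear members looked at were named for small p-values in these same libraries. That rate therefore does not strictly hold for them, and no excess is claimed. In 5 of them the library was Ifnar1 +/- library 6, which has the high globin share. Its complex I genes Ndufv1, Ndufa10 and Ndufv2 were highest, at 371, 273 and 219 CPM against 192 to 243, 195 to 224 and 147 to 174 CPM in the other 5 Ifnar1 +/- libraries. Its mitochondrial complex I genes mt-Nd4 and mt-Nd6 were lowest, at 227 and 43.9 CPM against 397 to 466 and 80.4 to 95.9 CPM. The remaining case was Ndufv3 in Ifnar1 -/- library 2, at 270.2 CPM against 92.7 to 125 CPM.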

How the results depend on the processing

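By genotype and in the interaction, 0 members were called in every alternative run. Between Ebf1 classes the 17 higher and 3 lower members became 42 and 4 with limma voom. There 40.8% of members were higher, against 22.5% of all genes. They became 5 and 1 at an adjusted p under 0.01 and 26 and 5 under 0.10. The shares of all genes at these thresholds were not computed, so these counts cannot be set against the background. Leaving out 1 library gave 11 to 28 higher and 1 to 4 lower. The 28 higher came without Ifnar1 -/- library 2 (27.2% against 18.1% of all genes). The 11 came without Ifnar1 -/- library 3 (10.7% against 11.5%) or Ifnar1 +/- library 4 (10.7% against 10.1%). Only 1 was lower without Ifnar1 -/- library 3 (0.971% against 9.99%) or Ifnar1 +/- library 5 (0.971% against 10.1%). Without Ifnar1 -/- library 2 and Ifnar1 +/- library 6 there were 32 higher (31.1% against 19.9%). Of the 20 members, 11 stayed called whichever 1 library was left out. They were Ndufc1, Ndufa9, Ndufab1, Ndufaf8, Ndufs5, Ndufa1, Atp5b, Atp5j2, Atp5k, Atp5o and mt-Cytb. Mitochondrial members that had not passed between Ebf1 classes passed in some alternatives: mt-Co1 in 5 of 24 (lowest edgeR, DESeq2 or limma adjusted p = 0.0243), mt-Nd1 in 2 (0.0181), mt-Nd5 in 1 (0.0389) and mt-Nd3 in 1 (0.0466).

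With the replicate number as a block, 0 members were higher and 0 lower. No pairing by library number was seen: correlations of same-numbered libraries were 0.41, 0.15, 0.58, -0.55 and 0.52, and no library correlated best with its own number. Only the fourth of the 5 numbers joins libraries of different Ebf1 class, and its value is the negative one. These correlations therefore also reflect the class and cannot exclude a pairing. For the same reason the fit with the block leaves little to estimate the class from.

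The log2 ratio of the nuclear sum between Ebf1 classes was 0.19, and 0.40 as CPM of raw totals. That of the mitochondrial sum was -0.02, and 0.19 by the same measure. Leaving out single libraries moved the ratio of mitochondrial to nuclear sums between -0.31 and -0.15 and that of mt-Cytb to mt-Co1 between 1.10 and 1.34, the latter added after seeing the data.

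None of the 20 called members changed sign in the alternatives run. Signs were followed for 22 members by genotype, 32 between Ebf1 classes and 21 in the interaction, with all mitochondrial members among them. Most nuclear members that were not called were not followed, so whether their signs changed is not known. Genes of the other lists were not run. Among the members followed, log2 fold changes of those that had not passed changed sign as follows, and the cause was not tested. With limma voom these were, by genotype, Ndufaf3 at -0.082, Cox6c at -0.16 and mt-Co3 at -0.066; between Ebf1 classes, mt-Co2 at 0.027 and mt-Atp6 at 0.031; in the interaction, mt-Co1 at 0.14, mt-Co3 at 0.13, mt-Co2 at 0.17, mt-Cytb at 0.096, mt-Atp8 at 0.28, mt-Nd4l at 0.15 and mt-Atp6 at 0.18. With a filter of 5 CPM in 5 libraries these were, by genotype, mt-Co2 at 0.0046; between Ebf1 classes, mt-Co3 at -0.029. With the replicate block these were, between Ebf1 classes, mt-Atp8 at 0.39, mt-Co2 at 0.40 and mt-Atp6 at 0.46; in the interaction, mt-Nd1 at -0.075 and mt-Nd4l at 0.10. With DESeq2 these were, between Ebf1 classes, mt-Co3 at -1.87e-05. With RLE size factors these were, between Ebf1 classes, mt-Co3 at -2.64e-05. Leaving out 1 library at a time, or both libraries that stood apart, turned the sign of others. By genotype the ranges were Ndufv3 -0.027 to 0.45, Cox6c -0.071 to 0.25, mt-Co3 -0.072 to 0.15, mt-Co1 -0.18 to 0.23, mt-Atp6 -0.21 to 0.030 and mt-Co2 -0.23 to 0.051. Between Ebf1 classes the ranges were mt-Atp8 -0.26 to 0.012, mt-Nd4 -0.017 to 0.24, mt-Co2 -0.21 to 0.12, mt-Atp6 -0.15 to 0.11 and mt-Co3 -0.035 to 0.16. In the interaction the ranges were mt-Nd5 -0.55 to 0.047, mt-Nd6 -0.54 to 0.062, mt-Nd4 -0.51 to 0.11, mt-Co1 -0.49 to 0.098, mt-Co3 -0.35 to 0.12, mt-Co2 -0.33 to 0.26, mt-Cytb -0.27 to 0.18, mt-Nd1 -0.060 to 0.23, mt-Nd3 -0.053 to 0.41, mt-Atp8 -0.31 to 0.25, mt-Nd4l -0.44 to 0.28 and mt-Atp6 -0.30 to 0.26.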

Other observations

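Ndufb1-ps, left out by its name, held 2299.55 to 9142.8 counts per library. Its name alone does not show whether it is an expressed complex I gene, and its counts are in none of the member sums. Cox6a2, also left out, had 490 counts in Ifnar1 +/- library 4, 133 in Ifnar1 +/- library 5 and 0 to 48 in the other libraries.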
